A study of Mus musculus with 6 samples.

Results

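The genes described here encode the enzymes that make cholesterol and fatty acids, with the regulators of both pathways, measured in cultured stromal fibroblasts of the mouse mammary gland. They were chosen by symbol: 21 genes of the sterol branch and 11 of the fatty acid branch, 32 in all of the 23337 genes listed, and all 32 passed the low-count filter. RNA was sequenced from 3 cultures of Sharpin-deficient mice (cpdm/cpdm, called Sharpin-cpdm or the mutant) and 3 of wild-type mice (wt/wt). All animals were of the C57BL/KaLawRij strain and 7 weeks old. Cells were freed from the gland with collagenase and grown at passage 0 in medium with serum until confluent, and each culture pooled the glands of 3 mice. The cpdm allele is a spontaneous loss-of-function mutation of Sharpin, a component of the LUBAC ubiquitin ligase, and is carried by every cell of the animal. Values given in sets of 3 are those of libraries 1, 2 and 3, in that order, and libraries with the same number are called a pair. A library is thus 1 pool of cultured cells, and these bulk samples cannot tell fewer cells of a type from less RNA per cell.

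Cells make cholesterol from acetyl-CoA through mevalonate, farnesyl diphosphate, squalene and lanosterol. Fatty acids are built from the same acetyl-CoA, then lengthened and desaturated. SREBP-2 (Srebf2) and SREBP-1 (Srebf1) are the transcription factors that switch on the sterol and fatty acid branch. SCAP carries them out of the endoplasmic reticulum when sterols are low, and INSIG proteins hold them back when sterols are plentiful. Oxysterols switch on the receptor LXR, which drives cholesterol export through transporters such as ABCA1. In the mammary gland, lipid synthesis is best known from the epithelium and from adipocytes, and cultured fibroblasts also run both branches to make membranes.

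Sharpin, the mutated gene, had 10.5, 9.13 and 9.50 CPM (counts scaled to the same library total) in the mutant and 24.5, 25.2 and 31.2 CPM in wild type (edgeR's adjusted p 0.272, or 0.00595 with the replicate number as a block). Gene counts per library ranged from 13570649 to 15656196, so that 1 CPM stands for between 13.6 and 15.7 reads. Fibroblast markers were abundant, with 16 of 16 tested and a summed level between 78333 and 97629 CPM. The 15 adipocyte markers were mixed. Lep and Retn had 0 counts in all 6 libraries, and Adipoq and Plin1 reached at most 0.201 and 0.067 CPM, but Lpl ranged from 271 to 1389, Fabp4 from 22.9 to 82.8, Cebpa from 28.1 to 36.4 and Pparg from 4.71 to 10.7 CPM. Of the milk protein genes, Csn2 and Wap had 0 counts and Csn3 ranged from 3.01 to 24.0 CPM. Markers of other cell types had lower summed levels. These were between 370 and 1561 CPM for the 15 adipocyte, between 594 and 1387 CPM for 19 endothelial and between 1876 and 2472 CPM for 10 pericyte genes. They were between 253 and 686 CPM for 16 epithelial and between 85.1 and 497 CPM for 15 macrophage and leukocyte genes. Most of the fibroblast sum was Col1a1, Col1a2 and Col3a1, and single markers were not always higher. The fibroblast marker Fap ranged from 69.7 to 108 CPM, beside 111 to 311 CPM for the endothelial Cdh5. Pdgfrb alone had between 830 and 1238 CPM of the pericyte sum.

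SREBP proteins bind the sterol regulatory element of their targets, often beside CCAAT and GC boxes bound by NF-Y and Sp1. RefSeq promoter windows (GRCm38.p6, 250 bases before to 50 after a start) were found for 25 of the 32 genes, 17 sterol and 8 fatty acid, but not for Fdps, Fdft1, Sqle, Stard4, Scd1, Scd2 and Fads1. The bases before the start are shown for Hmgcs1, the single gene with a match to the element TCACNCCAC, for Mvk with the most CCAAT boxes, for Insig1 with an E-box, for Fasn, whose levels did not overlap between genotypes, and for the 1 start of Insig2 that has CCAAT boxes, the gene that was lower in all 3 pairs. They lie at chr13:119690101-119690350 (plus strand), chr5:114444019-114444268 (plus), chr5:28071162-28071411 (plus), chr11:120824548-120824797 (minus) and chr1:121332590-121332839 (minus). Capitals mark TCACNCCAC, CACGTG or CCAAT on either strand, so that ATTGG is a CCAAT box read on the other strand.
Hmgcs1: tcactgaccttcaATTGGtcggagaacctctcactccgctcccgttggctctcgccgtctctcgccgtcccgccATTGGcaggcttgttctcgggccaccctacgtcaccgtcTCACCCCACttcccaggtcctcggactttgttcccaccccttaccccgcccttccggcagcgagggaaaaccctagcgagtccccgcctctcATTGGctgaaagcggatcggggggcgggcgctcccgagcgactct
Mvk: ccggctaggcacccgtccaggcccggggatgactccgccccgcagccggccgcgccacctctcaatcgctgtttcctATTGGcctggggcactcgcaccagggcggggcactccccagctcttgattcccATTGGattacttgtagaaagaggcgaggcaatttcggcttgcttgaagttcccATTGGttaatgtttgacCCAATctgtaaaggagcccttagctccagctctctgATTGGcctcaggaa
Insig1: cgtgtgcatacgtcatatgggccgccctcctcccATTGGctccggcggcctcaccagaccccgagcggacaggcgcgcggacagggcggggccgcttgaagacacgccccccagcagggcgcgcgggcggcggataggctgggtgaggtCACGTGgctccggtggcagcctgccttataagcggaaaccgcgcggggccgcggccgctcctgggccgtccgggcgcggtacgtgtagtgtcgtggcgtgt
Fasn: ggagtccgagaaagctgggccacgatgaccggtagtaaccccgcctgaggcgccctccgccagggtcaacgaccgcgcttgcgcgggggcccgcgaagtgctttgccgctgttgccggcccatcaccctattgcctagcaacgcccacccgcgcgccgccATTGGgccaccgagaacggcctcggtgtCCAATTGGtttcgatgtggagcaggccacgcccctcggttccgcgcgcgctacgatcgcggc
Insig2: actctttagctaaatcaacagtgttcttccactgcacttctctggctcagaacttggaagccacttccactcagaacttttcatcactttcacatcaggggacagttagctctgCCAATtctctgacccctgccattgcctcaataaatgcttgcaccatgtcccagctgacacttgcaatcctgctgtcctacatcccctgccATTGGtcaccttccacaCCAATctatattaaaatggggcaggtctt

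The element of Hmgcs1 began 137 bases before the start, between CCAAT boxes on both sides. TCACNCCAC was found in 408 of 32851 promoters of the table (1.24%), in 1 of 23 promoters of the sterol genes and in 0 of 11 of the fatty acid genes. The CCAAT box was found in 15 of 23 sterol and 6 of 11 fatty acid promoters, beside 37.4% of all promoters. The GC box GGGCGG was found in 19 of 23 and 6 of 11, beside 35.7%. The E-box CACGTG was found in 5 of 23 and 0 of 11, beside 7.15%. Both strands were searched, GC boxes are not capitalised, and CCAAT boxes on opposite strands can overlap, as in the CCAATTGG of Fasn. These are matches of letters, not bound sites, and other forms of the sterol element were not searched.

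No gene of either branch passed the threshold, and the levels in Sharpin-cpdm libraries were higher by a small amount in nearly all of them. Without a term for the replicate number, edgeR (quasi-likelihood test, Benjamini-Hochberg adjustment) called 0 of the 32 genes and 0% of 13442 genes in either direction. The log2 fold change (Sharpin-cpdm over wild type) was above 0 for 19 of 21 sterol and 11 of 11 fatty acid genes, beside 49.1% of all tested genes. Its median was 0.19 for the sterol and 0.21 for the fatty acid branch, beside -0.0027 over all tested genes. With the replicate number as a block, edgeR's test again called 0 of the 32, beside 0.394% of all genes called higher and 2.11% called lower, 31 of the 32 were above 0, beside 49.5%, and the medians were 0.21 and 0.22. DESeq2 also called 0 of the 32, beside 0.0111% of genes higher and 0.0443% lower, and with the block again 0, beside 0.435% and 2.33%. Limma-voom called 0 of the 32 and 0% of all genes.

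At an unadjusted p under 0.05, edgeR's test gave Acat2 alone without the block, where 0.521% of all genes were higher and 1.76% lower at that level. With the block it gave 8 sterol and 6 fatty acid genes, all higher, beside 7.48% of all genes higher and 9.82% lower. The 14 were Hmgcs1, Mvk, Sqle, Cyp51, Hsd17b7, Ebp, Dhcr7, Acat2, Fasn, Acly, Scd1, Scd2, Fads1 and Fads2. All 14 encode enzymes. None of the regulators Srebf2, Srebf1, Scap, Insig1 and Insig2 was among them. Most of the 32 genes encode enzymes, among them 16 of 21 sterol genes and every fatty acid gene but Srebf1. Enzymes were not tested against regulators.

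The difference was uneven between the same-numbered libraries and was largest in pair 3. Within pair 3 the median log2 ratio was 0.51 for sterol and 0.49 for fatty acid genes, beside 0.042 for all tested genes. Within pair 1 the medians were 0.040 and 0.087, beside 0.0066, and within pair 2 they were 0.068 and 0.11, beside -0.0085. Pair 3 held the highest of the 3 ratios of mutant to wild type for 30 of the 32 genes, beside 43.1% of all tested genes. The exceptions were Me1, highest in pair 1, and Insig2, whose ratios were all below 1 and lowest in pair 3. The number of genes higher in the mutant was 22 of 32 in pair 1, 26 in pair 2 and 31 in pair 3, beside 51.2%, 47.9% and 58.6% of all tested genes. All 3 pairs were higher for 12 of 21 sterol and 8 of 11 fatty acid genes, beside 22.7% of all tested genes.

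**Figure D1:**
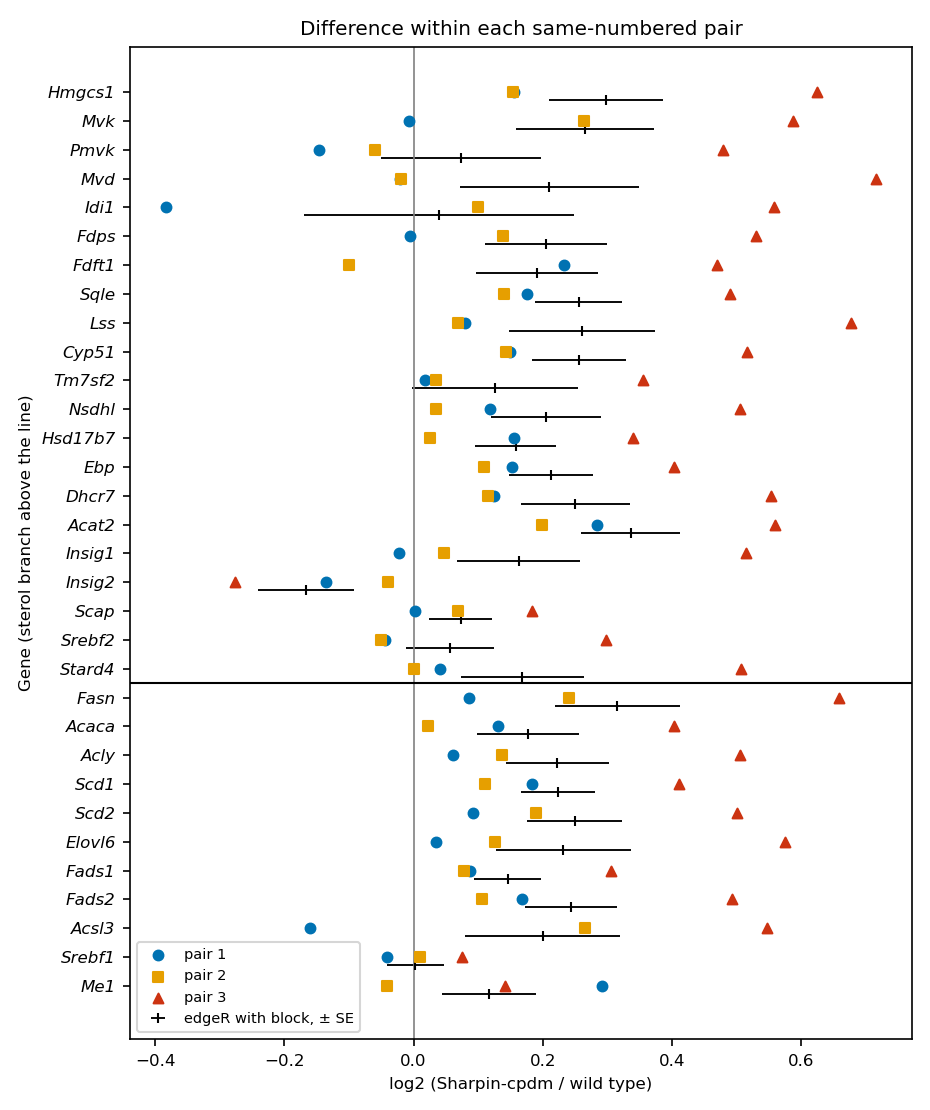
Log2 ratio of CPM, Sharpin-cpdm over wild type (x axis), for each of the 32 genes (y axis) within pairs 1, 2 and 3 (coloured points), with edgeR's log2 fold change ± SE from the fit with the replicate block (black). Pair 3 lies furthest right for 30 genes, and Insig2 alone lies below 0 in all 3 pairs.

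Wild-type library 3 was the low one. It had the lowest wild-type level for 17 of 21 sterol genes, beside 35% of all tested genes, and for 3 of 11 fatty acid genes (Fasn, Acly and Fads2). For 7 of 11 fatty acid genes wild-type library 2 was the lowest, beside 42.8%. In the mutant, library 2 was the lowest for 24 of the 32, beside 48.9%. The 21 sterol genes together took 1978, 1664 and 1356 CPM in wild type and 2095, 1758 and 1862 CPM in the mutant. The 11 fatty acid genes took 3597, 2559 and 2607 CPM in wild type and 3838, 2847 and 3581 CPM in Sharpin-cpdm. Both sums overlapped between genotypes, because wild-type library 1 exceeded Sharpin-cpdm libraries 2 and 3. Among wild-type libraries the median ratio of highest to lowest level was 0.59 on the log2 scale over the 32 genes, beside 0.40 for all tested genes. This range exceeded the genotype difference for 31 of the 32 genes, Acat2 being the exception. The same count was not made over all tested genes, so it does not set these genes apart.

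**Figure D2:**
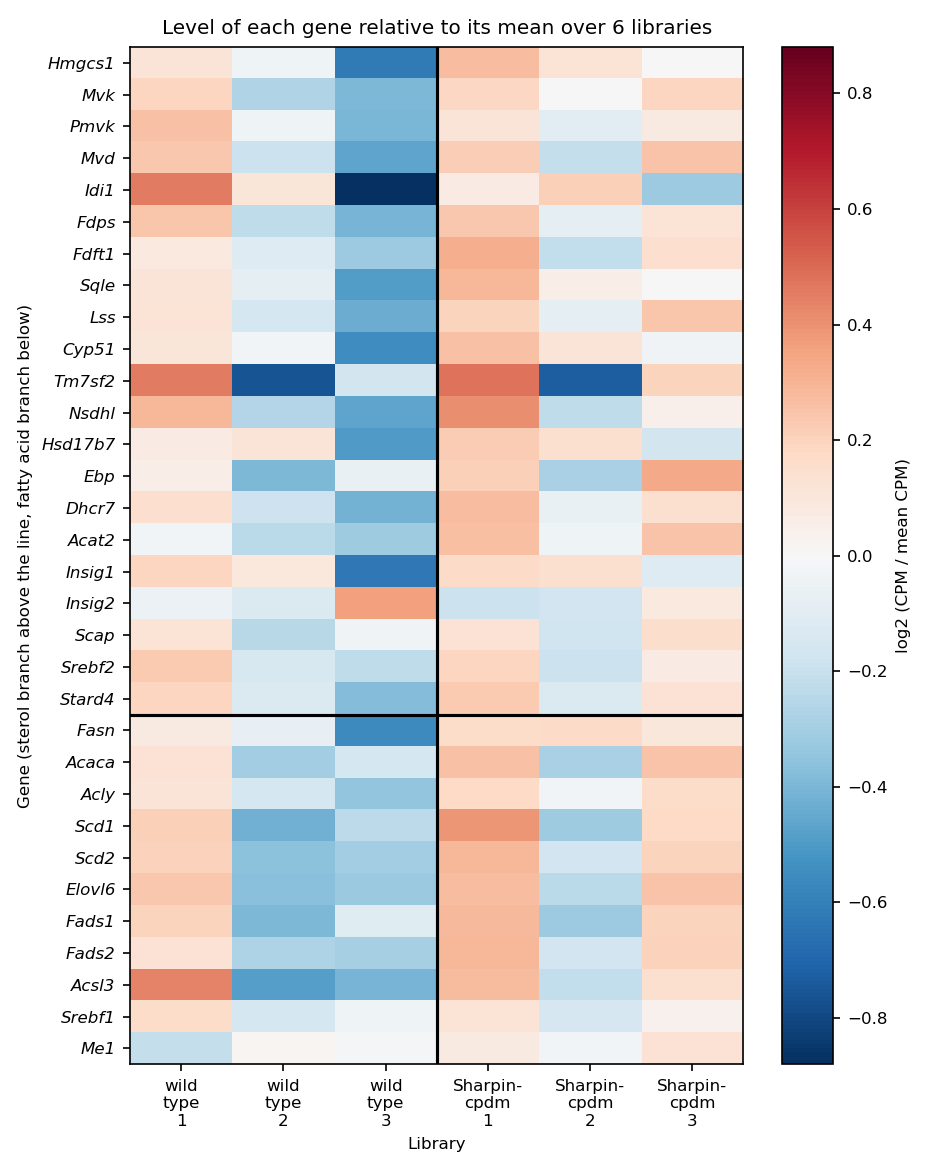
Each cell is the log2 of a gene's CPM in 1 library over its mean CPM in all 6 (red above, blue below), with sterol genes above and fatty acid genes below the horizontal line and wild type left of the vertical line. Wild-type library 3 is the lowest wild-type library for 17 of 21 sterol genes, and library 2 for 7 of 11 fatty acid genes.

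Leaving out 1 library kept both medians above 0 and moved their size. Without wild-type library 3 the median log2 fold change was 0.067 for sterol and 0.13 for fatty acid genes, and 15 of 21 and 10 of 11 were above 0. Pmvk, Hsd17b7, Insig1, Srebf2 and Srebf1 changed sign to below 0, at -0.094, -0.026, -0.081, -0.037 and -0.015. Idi1 and Insig2, already below 0 with all libraries, stayed so, Idi1 at -0.29. Without Sharpin-cpdm library 1 the medians were 0.092 and 0.11, and without wild-type library 2 the fatty acid median was 0.13. Without wild-type library 1 they were 0.36 and 0.38. With the block and without pair 3 the medians were 0.072 and 0.10, and without pair 1 they were 0.26 and 0.29. Without pair 1, edgeR's test called 4 of the 32 genes higher, beside 1.03% of 13605 genes called higher and 3.92% called lower. These were Mvk, Fasn, Scd2 and Acsl3, with adjusted p of 0.0423, 0.0241, 0.0359 and 0.0194 from edgeR.

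The mevalonate enzymes had a median log2 fold change of 0.20 over 7 genes. Acat2 (chr17:12942890-12960747, mm10) makes acetoacetyl-CoA, the first step towards mevalonate. It stood at 40.5, 32.8 and 40.1 CPM in the mutant and at 33.3, 28.6 and 27.2 CPM in wild type. Every pair was higher in the mutant, and the groups overlapped only where Sharpin-cpdm library 2 fell below wild-type library 1. Its log2 fold change of 0.34 ± 0.11 (SE, n = 3 per group) was the largest of the 32 (edgeR's adjusted p 1.00, or 0.0902 with the block). Hmgcs1 (chr13:119690379-119708260), the HMG-CoA synthase whose promoter holds the sterol element shown above, was the most abundant of the sterol branch by CPM and per kilobase of exon, at 67.2 CPM per kilobase. Its level was 372, 335 and 310 CPM in the mutant and 334, 301 and 201 CPM in wild type. The first 2 pairs differed 1.11-fold each and pair 3 differed 1.54-fold. The log2 fold change was 0.27 ± 0.20 without the block and 0.30 ± 0.088 with it (adjusted p 0.160 by edgeR with the block).

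Mvk, mevalonate kinase, stood at 37.7, 33.2 and 38.0 CPM in the mutant and 37.9, 27.7 and 25.3 CPM in wild type. Its log2 ratio was -0.0064, 0.26 and 0.59 in pairs 1 to 3, and the groups overlapped. Mvk had a log2 fold change of 0.25 ± 0.16 without the block and 0.27 ± 0.11 with it (adjusted p 0.275 by edgeR with the block). The later steps to farnesyl diphosphate, Pmvk, Mvd, Idi1 and Fdps, had log2 fold changes between -0.00072 (Idi1) and 0.20 (Mvd). Pair 3 was higher in all 4 and pair 1 lower in all 4, with pair 1 log2 ratios between -0.38 (Idi1) and -0.0051 (Fdps). Of the 7 mevalonate genes, 2 were higher in the mutant in pair 1, 5 in pair 2 and 7 in pair 3. Idi1, isopentenyl diphosphate isomerase, was the least abundant of the 32, at a mean of 4.27 CPM. By the summary rows, reads that align to several places were not counted for any gene (between 0.831 and 0.923 such alignments per gene count), so genes with near-identical copies or processed pseudogenes are less certain.

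From squalene to cholesterol, all 9 genes had a log2 fold change above 0, between 0.12 and 0.25. Pair 1 and pair 3 were higher for 9 of 9 and pair 2 for 8 of 9. Lss closes squalene epoxide into lanosterol. Its level was 73.0, 60.0 and 75.2 CPM in the mutant and 69.1, 57.2 and 47.0 CPM in wild type. Wild-type library 3 was the lowest of the 6, and pair 3 differed 1.60-fold against 1.06-fold and 1.05-fold in pairs 1 and 2. The log2 fold change was 0.25 ± 0.15 without the block and 0.26 ± 0.11 with it (adjusted p 0.308 by edgeR with the block). Sqle, the squalene epoxidase, and Cyp51, the lanosterol demethylase, were singled out after their values were seen because their block p was the smallest of this stretch. Both had block log2 fold changes of 0.26 (± 0.067 and ± 0.072 SE), with adjusted p of 0.127 and 0.146 from edgeR. The other 6, Fdft1, Tm7sf2, Nsdhl, Hsd17b7, Ebp and Dhcr7, had adjusted p between 0.170 and 0.673 in the same fit. In the annotation, Fdft1 overlaps Ctsb, Cyp51 Akap9, Srebf1 Rai1, Mvd Gm20388 and Acaca Gm11437 on the opposite strand, and the library kit did not mark strand. Tm7sf2 overlaps Vps51, Acsl3 Utp14b and Fdps Gm43738 on the same strand. Reads of all these overlaps are less certain.

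The 4 sterol regulators and the transport protein Stard4 had 0.072 as their median log2 fold change, and the 16 sterol enzymes had 0.21; this difference was not tested. Srebf2 stood at 294, 226 and 272 CPM in the mutant and 303, 234 and 221 CPM in wild type. It was lower in the mutant in pairs 1 and 2 and higher in pair 3. The log2 fold change was 0.050 ± 0.15 without the block and 0.056 ± 0.069 with it (adjusted p 0.724 by edgeR with the block). Scap, its escort, had 114, 92.4 and 116 CPM against 114, 88.1 and 102 CPM. The 2 genotypes lay within 1.14-fold of each other in all 3 pairs. Stard4, which moves cholesterol between membranes, had a log2 fold change of 0.16 with pair 3 at 1.42-fold.

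The INSIG genes had log2 fold changes of opposite sign, and neither passed the threshold. Insig1, itself a SREBP target, stood at 121, 119 and 99.4 CPM in the mutant and 123, 115 and 69.6 CPM in wild type. The ratio of mutant to wild type was 0.984, 1.03 and 1.43 in pairs 1 to 3. The log2 fold change was 0.13 ± 0.22 without the block and 0.16 ± 0.095 with it (adjusted p 0.447 by edgeR with the block). Insig2, which is not induced by SREBP, stood at 29.6, 30.1 and 35.9 CPM in the mutant and 32.5, 30.9 and 43.4 CPM in wild type. It was highest in wild-type library 3, where 17 sterol genes were lowest among wild-type libraries. It was the single gene of the 32 that was lower in all 3 pairs, beside 18.5% of all tested genes. The log2 fold change was -0.17 ± 0.15 without the block and -0.17 ± 0.074 with it (adjusted p 0.323 by edgeR with the block).

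In the fatty acid branch, the 4 genes that supply and build the chain had log2 fold changes between 0.11 and 0.29. Fasn (chr11:120805846-120824547), fatty acid synthase, stood at 298.0, 299 and 285 CPM in the mutant and 281, 253 and 180.2 CPM in wild type. It was the single gene of the 32 whose groups did not overlap, beside 3.35% of all tested genes not overlapping and higher and 2.59% not overlapping and lower. The Sharpin-cpdm libraries lay close together, at 294 ± 8.01 CPM (mean ± SD, n = 3), and the wild-type libraries were spread out, at 238 ± 51.9 CPM. Its log2 fold change was 0.29 ± 0.17 (edgeR's adjusted p 1.00, or 0.172 with the block). Acly, which releases cytosolic acetyl-CoA from citrate, and Acaca, which makes malonyl-CoA, had 0.21 and 0.18. Me1, the malic enzyme that supplies NADPH, had 0.11, and differed most in pair 1.

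Elongation and desaturation genes were higher in the mutant in all 3 pairs for 5 of 5. Scd2 (chr19:44293674-44306864), a stearoyl-CoA desaturase that introduces the first double bond, was the most abundant of the 32, at 255 CPM per kilobase of exon against 95.6 for Scd1. Scd2 stood at 1705, 1236 and 1597 CPM in the mutant and 1599, 1085 and 1128 CPM in wild type. Library 2 was low in both genotypes, and the groups overlapped. Its log2 fold change was 0.24 ± 0.19 without the block and 0.25 ± 0.074 with it (adjusted p 0.160 by edgeR with the block). Scd1 followed the same order within the mutant, at 613, 376 and 529 CPM, against 540.3, 349 and 398 CPM in wild type. Its pairs differed 1.14-fold, 1.08-fold and 1.33-fold. The log2 fold change was 0.23 ± 0.22 without the block and 0.22 ± 0.057 with it. Its block adjusted p of 0.122 in edgeR's test was the smallest of the branch. Scd1 and Scd2 have similar coding sequences, and the files do not show how many reads shared by both were dropped.

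Fads2, the delta-6 desaturase of polyunsaturated fatty acids, stood at 148, 107 and 139 CPM in the mutant and 132, 99.8 and 98.5 CPM in wild type. The groups overlapped because library 2 was low in the mutant too. The log2 fold change was 0.24 ± 0.15 without the block and 0.24 ± 0.072 with it (adjusted p 0.159 by edgeR with the block). Fads1, the delta-5 desaturase, and Elovl6, which elongates palmitate, had 0.15 and 0.22. Acsl3, which activates fatty acids with coenzyme A, stood at 112, 79.8 and 102 CPM in the mutant and 126, 66.4 and 69.8 CPM in wild type. It was lower in the mutant in pair 1 and higher in pairs 2 and 3. Its log2 fold change was 0.16 ± 0.26 without the block and 0.20 ± 0.12 with it (adjusted p 0.458 by edgeR with the block). Srebf1 differed least in the branch. Its level was 149, 124 and 140.2 CPM in the mutant and 153, 123 and 133 CPM in wild type, with ratios of 0.972, 1.01 and 1.05 in pairs 1 to 3 and a log2 fold change of 0.00083 ± 0.10.

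**Figure D3:**
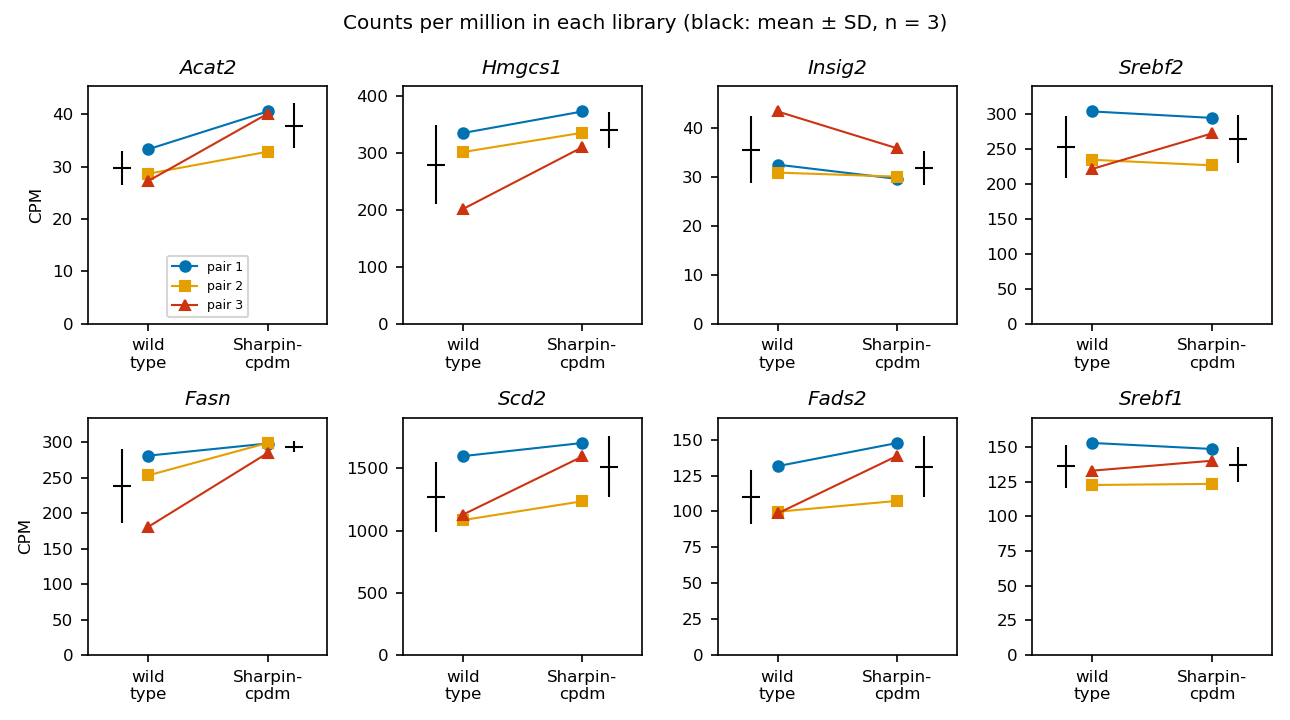
CPM (y axis, from 0) of 8 genes in wild type and Sharpin-cpdm, with lines joining same-numbered libraries and black marks for the mean ± SD of 3 libraries. Lines of pair 3 climb most steeply for Acat2, Hmgcs1, Fasn, Scd2 and Fads2, Srebf1 is nearly flat, and Insig2 slopes down.

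Other genes of the pathways were read from lists. Of 13 further sterol genes tested, edgeR called 0 under the block, 9 had a log2 fold change above 0 and the median was 0.071. Sc4mol, a sterol demethylation enzyme named after its values were seen, had a block log2 fold change of 0.22 ± 0.065 (edgeR adjusted p 0.158). It was lowest in wild-type library 3, at 97.8 CPM. Of 27 further genes of fatty acid and triglyceride synthesis, 0 were called, 19 were above 0 and the median was 0.052. Of 17 cholesterol export, esterification and LXR genes, 13 were below 0, with a median of -0.18. The 4 above 0 were Soat1, Lpcat3, Nceh1 and Osbpl8, at 0.17, 0.14, 0.098 and 0.0011. The esterification genes thus differed in sign: Soat1 ranged from 116 to 157 CPM, and Soat2, at -0.43, from 7.36 to 12.4 CPM. Abca1, the cholesterol exporter, fell (adjusted p 0.0259 by edgeR with the block), and was the single call of that list. It stood at 83.0, 55.1 and 193 CPM in the mutant and 116, 69.8 and 231 CPM in wild type, highest in library 3 of both genotypes.

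Other gene lists also differed between these libraries. All 21 proliferation genes had a log2 fold change above 0, with a median of 0.24, and wild-type library 3 had their lowest summed level, at 912 CPM against between 1227 and 1537 CPM in the other 5 libraries. Their median was 0.24, 0.16 and 0.43 in pairs 1 to 3, again largest in pair 3, as was the median of all tested genes. Bub1b and Ccnd1 rose under the block, at edgeR adjusted p of 0.0334 and 0.0109. Adipocyte markers went the other way, with a summed level of 617, 370 and 755 CPM in the mutant and 1126, 518 and 1561 CPM in wild type. Most of that sum was Lpl, the lipoprotein lipase. Lpl and Fabp4 fell under the block, at edgeR adjusted p of 0.0255 and 0.00486, and 6 of the 7 tested markers were below 0. Endothelial markers had a log2 fold change below 0 for 19 of 19, 14 of them called with the block, with a median of -0.81. Of 16 fibroblast markers, 11 were below 0, the median was -0.12, and Dcn, Lum, Fap and Dpt fell under the block, with log2 fold changes of -0.90, -0.71, -0.35 and -1.27 (edgeR adjusted p 0.0402, 0.00839, 0.0259 and 0.00997). Of 9 pericyte markers, 8 were below 0, the median was -0.42, and Mcam, Abcc9 and Notch3 fell under the block (edgeR adjusted p 0.0473, 0.0215 and 0.0271). Of 13 epithelial markers, 11 were below 0 and 0 were called, with a median of -0.30. Of 13 macrophage and leukocyte markers, 0 were called, and the median was -0.064 without and 0.047 with the block. The part of proliferation or of other cell types in the levels of the synthesis genes was not tested.

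**Figure D4:**
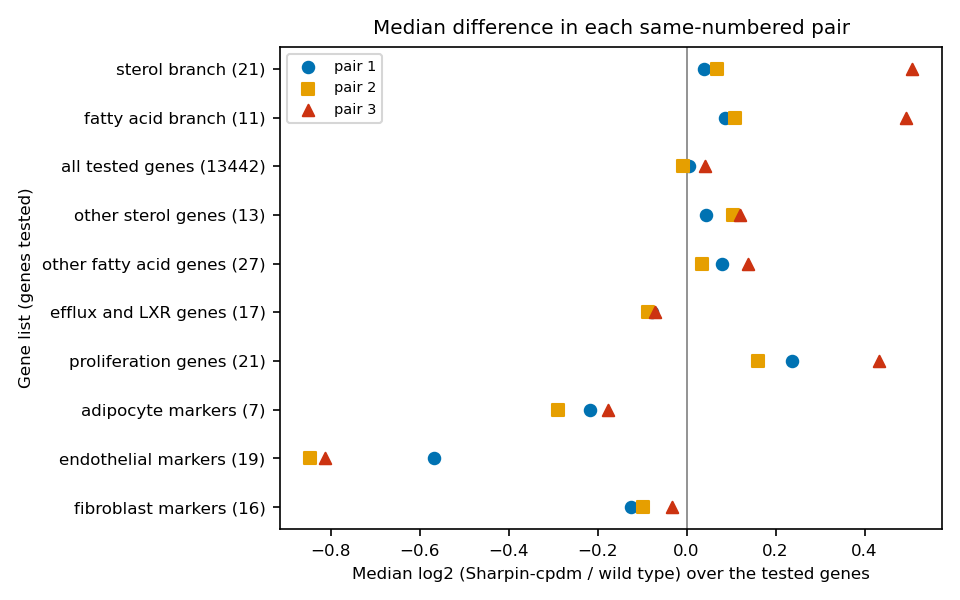
Median log2 ratio of Sharpin-cpdm over wild type (x axis) within pairs 1, 2 and 3 (coloured points) for both branches, all tested genes and 7 comparison lists (y axis, with the number of genes tested). Every row but the endothelial markers lies furthest right in pair 3, all tested genes included. The efflux and LXR genes and the adipocyte, endothelial and fibroblast markers lie left of 0 in all pairs.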

How the data were processed

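RNA was sequenced from 3 Sharpin-cpdm and 3 wild-type cultures with TruSeq RNA v2 libraries. The submitters' processing notes name TopHat2 2.0.10, HTSeq 0.5.4p3, bcl2fastq 1.8.4 and mm10. How overlaps were counted is not given in the sources used here. Raw counts were deposited by the authors: reads per gene symbol, 23337 gene rows and 5 summary rows a library. The summary rows (between 48.8% and 51.2% of entries) were left out of library sizes and tests.

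CPM are counts scaled to the total of the gene rows, without further scaling. Log2 fold changes come from edgeR 4.0.16 in R 4.3.3 (glmQLFTest, filterByExpr leaving 13442 genes, TMM factors between 0.969 and 1.03, two-sided, Benjamini-Hochberg over all tested genes, threshold 0.05). DESeq2 1.42.0 and limma-voom (limma 3.58.1) were alternatives. SE was taken as |log2 fold change| over √F of the same fit. Fold changes and SE are from the fit without the block unless the block is named. Pair ratios of all tested genes had 0.1 CPM added to both values, those of the 32 genes none. CPM per kilobase uses the exon union of GENCODE M21. The edgeR and DESeq2 fits without and with the block, limma-voom and the fit with offsets were tried on simulated data. Differences between pairs were built into those data. The fits with unscaled totals, without the filter or with libraries left out were not tried on them. Libraries of the same genotype differed beyond sampling noise (chi-square per degree of freedom at least 16.9 in the 6 pairs compared).

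The labels do not say what a replicate number marks. Correlations of deviations from group means across 13442 genes were 0.457, 0.809 and 0.737 for same-numbered libraries and between -0.691 and 0.0068 for others. Deviations within a genotype cancel out for each gene, so the low values of the others partly follow from the high ones. The libraries were treated as pairs because of these values, so the block was chosen from the same data it was used on. The members and gene lists were chosen with earlier results of these data known. Per-library values are given for genes called or not overlapping (Acsl3, called only without pair 1, was added after its values were seen), the 4 largest log2 fold changes of each branch, the most abundant gene of each and 5 regulators. No list was given a test of its own.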

Additional observations from a re-analysis of the deposited data

How the results depend on the processing

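All 32 genes missed the threshold in edgeR without and with the replicate block, DESeq2 with and without it, limma-voom, unscaled library totals, no low-count filter, and the block with GC and length offsets. Branch medians stayed above 0 in each. Over all genes, 0 calls without the block became 337 (53 higher, 284 lower) with the replicate block, 10 (2 and 8) in DESeq2, 337 (53 and 284) in DESeq2 with the block, and 392 (82 and 310) with the offsets. With 1 pair left out under the block they ranged from 44 to 673 (3 to 140 higher, 41 to 533 lower; without pair 2, 128, 9 and 119), and with 1 library left out without it they stayed at 0 (0 to 673 over both); members called ranged from 0 to 4.

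Idi1, at -0.00072, changed sign with the block (0.039), in DESeq2 (0.0048, with the block 0.069), limma-voom (0.066), library totals (0.0056), no filter (0.0046) and the offsets (0.020); it had between 33 and 80 reads a library and an SE of 0.36. With 1 library or pair left out, log2 fold changes spanned 0 for Idi1 (-0.29 to 0.28; block without pair 2, 0.0085), Pmvk (-0.10 to 0.22; without wild-type 3, -0.094), Mvd (-0.018 to 0.39), Tm7sf2 (-0.13 to 0.47), Hsd17b7 (-0.026 to 0.27), Insig1 (-0.081 to 0.27), Scap (-0.0070 to 0.15), Srebf2 (-0.045 to 0.19; without wild-type 3, -0.037), Srebf1 (-0.057 to 0.081; block without pair 2, -0.0068, and without pair 3, -0.014), and kept their sign for the other 23 members.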
